A study of Mus musculus with 12 samples.

Results

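The genes described here are 35 named genes of the mouse lysosome, the acidic organelle in which macrophages break down what they engulf. They were chosen by gene name and comprise 3 transcription factors of the MiT family (Tfeb, Tfe3 and Mitf), 8 lysosomal membrane proteins, 23 enzymes, activators or lipid carriers of the lysosomal interior, and the autophagy receptor Sqstm1. Cathepsins were not included. They are 35 of the 55586 genes in the count table, and all 35 were among the 13474 genes that passed the filter on low counts. The smallest count of any of them in any library was 93 reads, for Sgsh.

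RNA was sequenced from mouse peritoneal macrophages, the phagocytes of the abdominal cavity, kept in culture under 4 conditions with 3 libraries each. The cells received Remodelin hydrobromide and then interferon gamma (IFN-γ), Remodelin alone, IFN-γ alone, or neither agent (control). Remodelin is known as an inhibitor of the acetyltransferase Nat10, which places the ac4C mark (N4-acetylcytidine) on RNA, and the title of the series is about lower ac4C in macrophages of liver tumours. The labels give no dose, time, strain, sex or age. They also do not state whether libraries of 1 group are separate cultures or animals, so p-values measure the spread between these libraries alone, and that spread may be technical.

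Libraries held 15917454 to 19418665 counts. Of 10 macrophage markers 9 passed the count filter (Timd4 did not). Their summed level, in CPM (counts scaled to library depth with TMM factors), was 15738 to 23649.9 in Remodelin with IFN-γ libraries, 13312 to 23768 in Remodelin libraries, 18516 to 21236 in IFN-γ libraries and 14384 to 21939.7 in control libraries, nearly all of it Lyz2, the lysozyme gene. The other 9 markers summed to 568 to 639 CPM with both agents, 598 to 647 CPM with Remodelin, 568 to 613 CPM with IFN-γ and 614 to 661 CPM in controls. None of 6 T and NK cell markers passed, and Ncr1 and the eosinophil marker Epx had 0 counts in all 12 libraries. The 6 mesothelial and stromal markers, all of which passed, summed to 77.9 to 189 CPM with both agents, 101 to 199 CPM with Remodelin, 159 to 199 CPM with IFN-γ and 210.2 to 338 CPM in controls. B cell markers, of which 4 of 6 passed, summed to 4.80 to 5.24 CPM with both agents and 4.80 to 5.36 CPM with Remodelin, against 6.79 to 7.04 CPM with IFN-γ and 5.82 to 6.30 CPM in controls. Neutrophil markers, of which 3 of 6 passed, summed to 24.5 to 31.3 CPM with both agents against 33.9 to 39.2 CPM with IFN-γ, and to 17.8 to 24.9 CPM with Remodelin against 23.8 to 32.0 CPM in controls. Most of the neutrophil sum was S100a8 (mean 20.4 CPM over the 12 libraries) and Mmp8 (6.72 CPM). Ly6g had 1 read and Camp 8 reads over all 12 libraries. B cell sums were lower in all 6 libraries with Remodelin than in all 6 without it, and the other sums overlapped in part. The part of these 3 lists in the results below was not tested. Nat10 itself stood at 11.6 to 19.4 CPM with both agents, 14.2 to 22.5 CPM with Remodelin, 15.2 to 17.5 CPM with IFN-γ and 16.0 to 19.9 CPM in controls, ranges that overlap. The interferon-induced GTPase gene Gbp2 was at 10.4 to 11.9 CPM with both agents, 6.09 to 6.59 CPM with Remodelin, 7.98 to 8.76 CPM with IFN-γ and 6.19 to 7.49 CPM in controls. Over all genes, IFN-γ alone gave 2 called genes.

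Lysosomal enzymes each remove one kind of bond from sugar chains, lipids or proteins, and the inherited loss of a single enzyme leaves its substrate stored in the organelle. Their genes are known to be switched on together by the MiT factors, which bind a palindromic element around the letters CACGTG (the CLEAR element) near the gene start. Many of these genes are known to be expressed at high levels in macrophages, cells that degrade large amounts of foreign material.

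The promoter windows of the genes, 250 bases before to 50 bases after the start in RefSeq's table for GRCm38.p6, were read for this element, since the genes are treated as a set that the MiT factors control. The table matched 32 of the 35 genes. It held no entry under the names Asah1, Npc1 and Galns. CACGTG occurred in 9 of the 32 windows (28.1%), against 8.09% of all 27025 genes in the table, counted by gene. The genes of the table include many that did not pass the count filter. They were not matched to the 35 by level or base composition, here or for the longer forms. The 9 genes were Lamp1, Mcoln1, Cln3, Glb1, Gla, Arsa, Naglu, Sgsh and Gaa. The longer TCACGTG, read on both strands and always containing CACGTG, was in the same 9 windows (28.1%, against 4.29% of all genes). The palindrome TCACGTGA, which contains both, was in the windows of Mcoln1, Cln3 and Gla (9.38%, against 1.12%). The full CLEAR element, the longest form searched and containing all 3, was in that of Cln3 alone (3.12%, against 0.37%). A match describes letters and not binding. The following stretches of 30 bases show the element, in capitals, in the 2 genes with it that changed with Remodelin (Sgsh and Naglu) and in 3 that were not called (Cln3, Mcoln1 and Lamp1), each read 5′ to 3′ on the strand of its gene.
Sgsh, chr11:119355522-119355551, minus strand: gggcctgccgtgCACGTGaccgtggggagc
Naglu, chr11:101070009-101070038, plus strand: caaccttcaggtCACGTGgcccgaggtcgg
Cln3, chr7:126583340-126583369, minus strand: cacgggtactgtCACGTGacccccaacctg
Mcoln1, chr8:3500462-3500491, plus strand: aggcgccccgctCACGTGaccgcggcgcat
Lamp1, chr8:13159088-13159117, plus strand: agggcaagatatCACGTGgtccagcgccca
In Sgsh the element lies 29 to 24 bases before the start, and in Naglu 73 to 68 bases before it. The Lamp1 window holds the element 4 times and those of Mcoln1, Cln3 and Gla 2 times each. The windows of Gusb, Neu1 and Fuca1, the other genes called with Remodelin, do not hold these letters. Below are the whole windows of the 2 genes whose calls were kept whichever library was left out, Sgsh with the element in capitals and Gusb without one.
Sgsh, chr11:119355461-119355760, minus strand: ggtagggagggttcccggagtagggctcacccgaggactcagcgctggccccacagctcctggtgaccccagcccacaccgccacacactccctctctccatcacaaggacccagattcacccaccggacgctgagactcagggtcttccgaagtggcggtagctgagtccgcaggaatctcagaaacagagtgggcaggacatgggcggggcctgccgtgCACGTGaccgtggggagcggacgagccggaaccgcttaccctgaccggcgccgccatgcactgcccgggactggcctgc
Gusb, chr5:130003000-130003299, minus strand: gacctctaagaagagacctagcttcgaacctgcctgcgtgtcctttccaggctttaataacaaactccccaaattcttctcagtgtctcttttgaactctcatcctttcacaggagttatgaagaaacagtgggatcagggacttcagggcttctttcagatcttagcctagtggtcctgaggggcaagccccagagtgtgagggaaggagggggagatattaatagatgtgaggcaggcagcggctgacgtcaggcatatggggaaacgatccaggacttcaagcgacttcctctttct
The Sgsh window is 67% G and C, and the Gusb window 49.7%.

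Per length, the 35 genes covered a wide range of levels in these cells. In the authors' FPKM (fragments scaled to gene length and library depth), Psap averaged 5942 over the 12 libraries, Hexa 1333 and Cd68 1239. Psap encodes prosaposin, the precursor of the saposins that present sphingolipids to their enzymes, Hexa the alpha subunit of β-hexosaminidase, lost in Tay-Sachs disease, and Cd68 a heavily glycosylated membrane protein used as a macrophage marker. Cd63, a tetraspanin, followed at 1220 FPKM, and Lamp1, a main glycoprotein of the lysosomal membrane, at 1072 FPKM. These 5 genes held 85.1% of the summed FPKM of the 35, and the first 3 held 67%. Cholesterol and lipid genes came next, with Npc2, the soluble cholesterol carrier, at 441 FPKM and Lipa, the acid lipase, at 226 FPKM, followed by Gusb at 191 FPKM. At the low end stood Tfeb at 13.4 FPKM, Tfe3 at 9.23 FPKM, Idua at 5.86, Manba at 4.99, Ids at 4.38, Arsb at 4.0, Mitf at 3.41 and Sgsh at 2.92 FPKM. Of the 3 MiT factors, Tfeb was thus the highest per length and Mitf the lowest, with no overlap between them over the libraries (9.15 to 17.7 FPKM for Tfeb and 2.48 to 4.37 FPKM for Mitf), while Tfe3 (5.94 to 10.9 FPKM) overlapped Tfeb. Across the 12 libraries the SD of log2 CPM had a median of 0.23 for the 35 genes and 0.32 for all tested genes. These sets were not matched for read counts, on which this spread also depends. Sgsh had the widest spread of the 35 (0.51), and Lamp1 the narrowest (0.10).

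**Figure D1:**
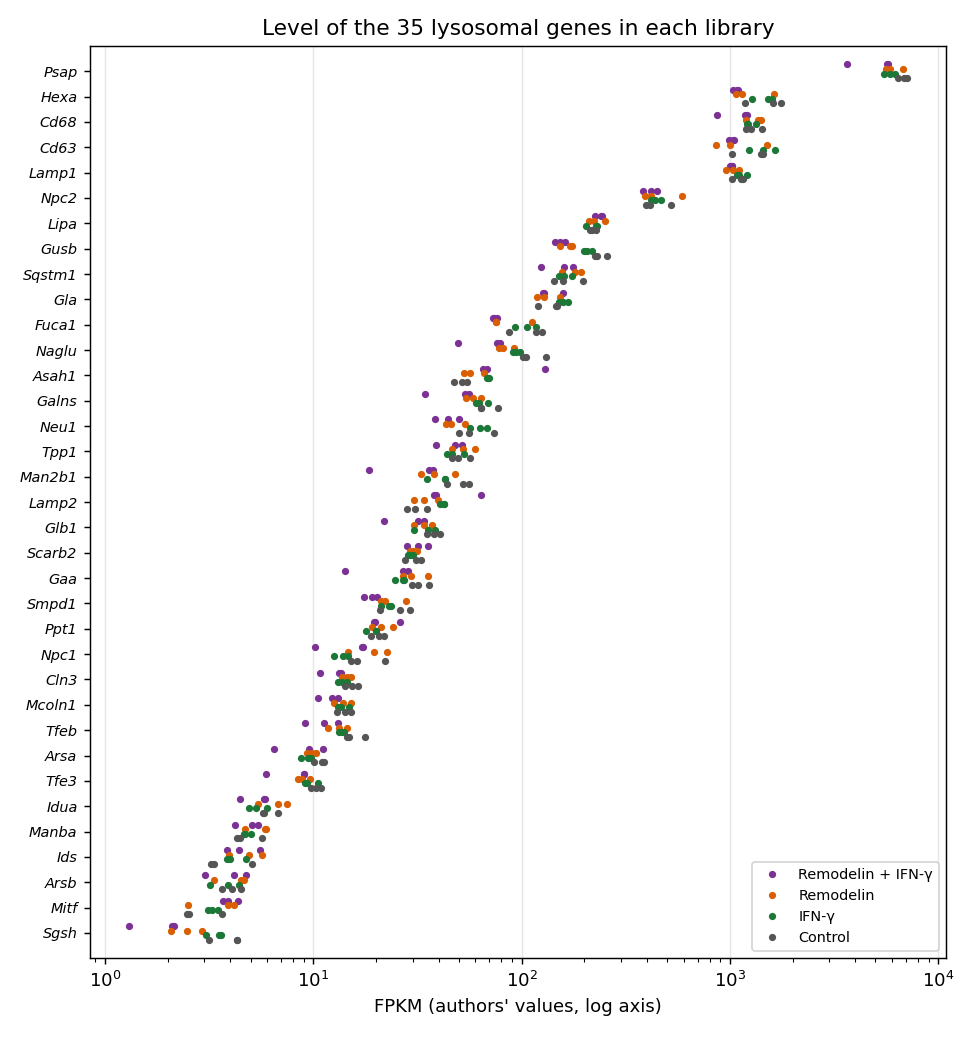
Level of each of the 35 genes in each of the 12 libraries, in the authors' FPKM on a log axis, with genes ordered by their mean and 1 point per library, coloured by group. Psap is highest at a mean of 5942 FPKM and Sgsh lowest at 2.92 FPKM.

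Libraries with Remodelin were compared with those without it, over both levels of IFN-γ. This average Remodelin effect sets 6 libraries (Remodelin with IFN-γ, and Remodelin) against 6 others (IFN-γ, and control). Of the 35 genes, 5 fell: Sgsh, Gusb, Naglu, Neu1 and Fuca1, all of them lysosomal enzymes (edgeR quasi-likelihood test, Benjamini-Hochberg adjusted p under 0.05 over all 13474 genes). That is 5 of 35, where 4.8% of all tested genes were called lower. DESeq2 also called each of these 5, where it called 5.74% of all genes lower. Whether DESeq2 called more of the 35 lower is not given here. None of the 35 rose, where 2.24% of all tested genes were called higher (0 of 35 also by DESeq2 and at an unadjusted p under 0.05, which 11.8% of all genes met). At an unadjusted p under 0.05, 11 of the 35 were lower, where 14.3% of all genes were. All 6 libraries with Remodelin lay below all 6 without it for 3 of the 35 (Gusb, Naglu and Sgsh), where 3.42% of all tested genes did so, and above for 0, where 1.24% did. The median log2 fold change of the 35 was -0.13, with 24 of 35 below 0. For all tested genes the median was 0.03, and 46.6% were below 0. In bulk RNA, fewer cells of a type and less RNA per cell cannot be told apart.

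Gusb, β-glucuronidase, which cuts glucuronic acid from the ends of glycosaminoglycan chains and is lost in Sly syndrome, had 666, 702 and 740.3 CPM in Remodelin with IFN-γ libraries, 761, 780.0 and 698 CPM in Remodelin libraries, 1003, 916 and 956 CPM in IFN-γ libraries, and 1062, 1034 and 1169 CPM in control libraries. All 6 libraries with Remodelin lay below all 6 without it. The log2 fold change was -0.50 ± 0.10 (SE), with an edgeR adjusted p of 0.00595.

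Sgsh, the sulfamidase that removes sulfate from the glucosamine of heparan sulfate and is lost in a form of Sanfilippo syndrome, had 5.81, 9.60 and 9.32 CPM in Remodelin with IFN-γ libraries, 8.78, 13.0 and 11.0 CPM in Remodelin libraries, 15.7, 13.6 and 16.1 CPM in IFN-γ libraries, and 19.4, 19.2 and 14.0 CPM in control libraries. Here too the 6 libraries with Remodelin stood below the 6 without it, with a narrow gap between the Remodelin library at 13.0 CPM and the IFN-γ library at 13.6 CPM. It had the largest fold change of the 35, at -0.78 ± 0.15 on the log2 scale (edgeR adjusted p = 0.00761). Its exons overlap those of Card14 on the opposite strand, with 955 shared exon bases (21.6% of the exon bases of Sgsh in the GENCODE M21 annotation of GRCm38). Card14 counts were 17, 17 and 24 reads in Remodelin with IFN-γ libraries, 12, 13 and 16 in Remodelin libraries, 43, 39 and 37 in IFN-γ libraries and 44, 37 and 32 in control libraries. Sgsh counts in the same order of groups were 93, 184 and 160, then 137, 225 and 190, then 277, 240 and 282, then 384, 353 and 257 reads. Card14 fell as well (log2 fold change -1.15 ± 0.21, edgeR adjusted p = 0.00468). No source used here gives the strand setting of the counting, so reads of the shared bases cannot be told apart. Sgsh is not the only gene of the 35 with such an overlap. Arsb shares 32.3% of its exon bases with Gm26527, Arsa 18.8% with C230037L18Rik and Sqstm1 17.3% with Mrnip, all on the opposite strand. Ppt1 (mean count 1347.8) shares 3.51% with Cap1 on the opposite strand, whose mean count was 12329.7.

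Naglu, the glucosaminidase that acts on heparan sulfate after sulfate has been removed, and whose loss causes another form of Sanfilippo syndrome, had 133, 213 and 204 CPM in Remodelin with IFN-γ libraries, 207, 245 and 208 CPM in Remodelin libraries, 265, 251 and 246 CPM in IFN-γ libraries, and 276, 349.7 and 281 CPM in control libraries. The groups with and without Remodelin did not overlap, though the highest of the 6 with Remodelin (Remodelin 2) and the lowest of the others (IFN-γ 3, 246 CPM) nearly met. Its log2 fold change was -0.46 ± 0.12 (edgeR adjusted p = 0.0315). Without control 2 that adjusted p was 0.106, and 6 of 12 libraries ended the call when left out.

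Neu1, the lysosomal sialidase, which removes terminal sialic acid, had 145, 190.0 and 166 CPM in Remodelin with IFN-γ libraries, 191, 171 and 162 CPM in Remodelin libraries, 238, 256 and 216 CPM in IFN-γ libraries, and 190.0, 279 and 209 CPM in control libraries. Only control 1 reached down into the range of the libraries with Remodelin. The log2 fold change was -0.44 ± 0.11 (edgeR adjusted p = 0.0315). It was 0.108 without control 2, and leaving out any of 7 libraries ended the call.

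Fuca1, the α-fucosidase lost in fucosidosis, had 241, 246 and 252 CPM in Remodelin with IFN-γ libraries, 351, 249 and 247 CPM in Remodelin libraries, 350.2, 385 and 309 CPM in IFN-γ libraries, and 289, 386 and 409 CPM in control libraries. Remodelin 1, at 351 CPM, stood with the libraries without Remodelin, and control 1, at 289 CPM, was the lowest of those. The log2 fold change was -0.43 ± 0.12 (edgeR adjusted p = 0.0415). Leaving out any of 10 libraries ended the call, with adjusted p-values up to 0.117 (without control 2). Gusb and Sgsh, by contrast, were called in all 12 fits with 1 library left out, with adjusted p-values of 0.00435 to 0.0287 for Gusb and 0.00701 to 0.0300 for Sgsh. They were the 2 genes called without control 2, IFN-γ 1, IFN-γ 2, Remodelin 3 or Remodelin with IFN-γ 1, while 3 genes were called without IFN-γ 3, Remodelin 2 or Remodelin with IFN-γ 3.

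**Figure D2:**
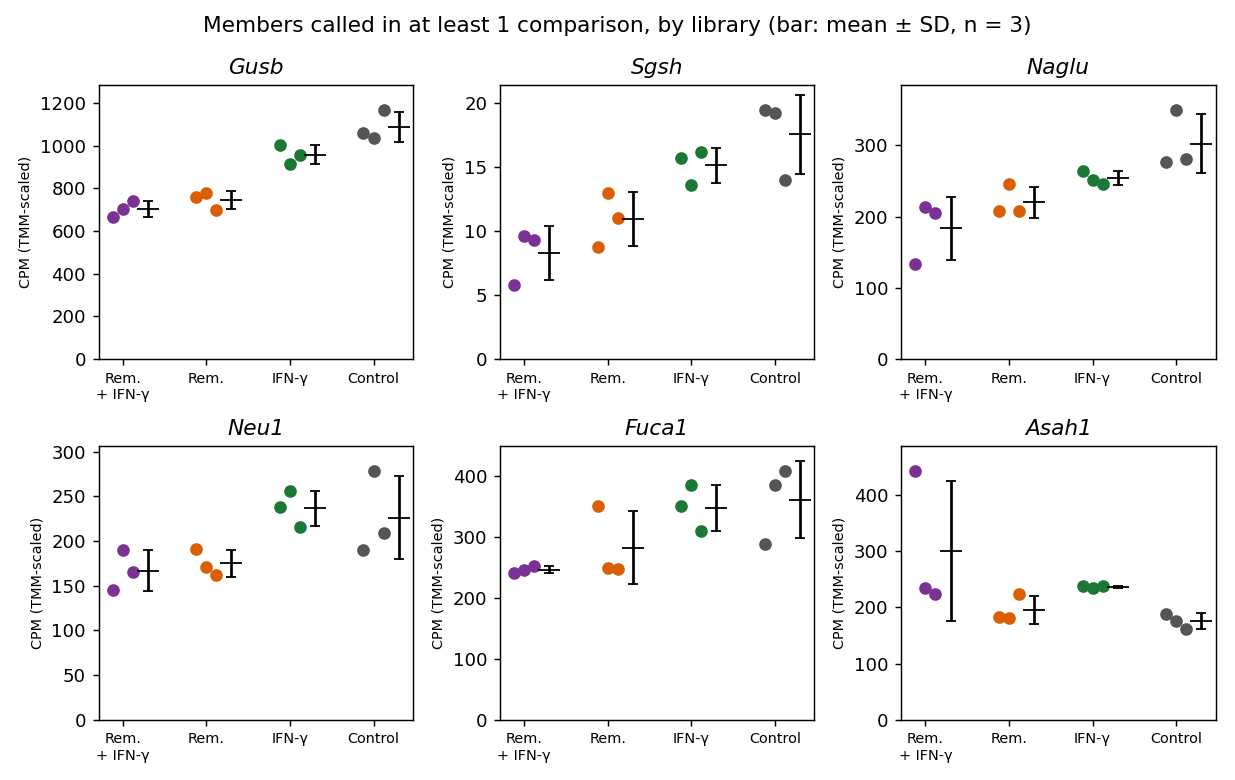
CPM of the 6 genes called in at least 1 comparison, 1 panel per gene with a linear axis from 0, in Remodelin with IFN-γ, Remodelin, IFN-γ and control libraries; points are libraries and the bar beside them is the mean ± SD of 3. For Gusb, Sgsh and Naglu the 6 libraries with Remodelin lie below the 6 others, and for Asah1 1 library with both agents lies apart at 443 CPM.

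The 35 genes were then read by function. Of 7 glycosaminoglycan enzymes 4 were below 0 and 3 were called (Gusb, Naglu and Sgsh), with a median log2 fold change of -0.34. The fourth, Galns, a sulfatase of keratan and chondroitin sulfate lost in Morquio syndrome, had -0.34 ± 0.12 (edgeR adjusted p = 0.0979). The other 3, Idua, Ids and Arsb, which take iduronic acid or sulfate from dermatan or heparan sulfate, had 0.04 ± 0.13, 0.21 ± 0.15 and 0.03 ± 0.14. Estimates for genes of the same degradation route lay on both sides of 0. None of the 3 above 0 was called, and differences between the genes were not tested.

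Among 8 genes of sphingolipid and ganglioside degradation 7 were below 0, with a median of -0.20, and Neu1 was called. Hexa had 2079.9, 2194 and 2188 CPM in Remodelin with IFN-γ libraries, 3092, 2282 and 2158 CPM in Remodelin libraries, 3068, 3197 and 2612 CPM in IFN-γ libraries, and 2406, 3260.1 and 3512 CPM in control libraries. As with Fuca1, Remodelin 1 was high and control 1 low. The Hexa log2 fold change was -0.37 ± 0.13 (edgeR adjusted p = 0.0836). Psap had 10151, 15939 and 15657 CPM in Remodelin with IFN-γ libraries, 15454, 18629 and 15610.5 CPM in Remodelin libraries, 17165, 15178 and 16484 CPM in IFN-γ libraries, and 19081, 19652 and 17602 CPM in control libraries. Its groups with and without Remodelin overlapped, and its log2 fold change was -0.20 ± 0.13 (edgeR adjusted p = 0.329). The others below 0 were Glb1 (-0.22, β-galactosidase), Smpd1 (-0.19, acid sphingomyelinase), Gla (-0.14, the α-galactosidase lost in Fabry disease) and Arsa (-0.10, the sulfatase of sulfatide). Asah1, acid ceramidase, was the 1 gene above 0, at 0.25 ± 0.15 (edgeR adjusted p = 0.278).

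Of 4 enzymes of glycogen and glycoprotein glycans 3 were below 0, and Fuca1 was called. Man2b1, the α-mannosidase lost in mannosidosis, had -0.39 ± 0.16, Gaa, the glucosidase that degrades glycogen and is lost in Pompe disease, -0.15 ± 0.15, and Manba, the β-mannosidase, 0.10 ± 0.12. Lipa and Npc2 stood at 0.06 ± 0.10 and -0.02 ± 0.12. Tpp1, a peptidase, and Ppt1, which removes palmitate from proteins, both lost in neuronal ceroid lipofuscinoses, stood at -0.01 ± 0.11 and 0.10 ± 0.10. None of these but Fuca1 passed the edgeR test.

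None of the 8 membrane proteins was called for the average Remodelin effect (edgeR, and 0 by DESeq2; 1, Cd63, at an unadjusted p under 0.05). Their median log2 fold change was -0.11, with 5 of 8 below 0. Lamp1 had 2692, 2790.0 and 2747 CPM in Remodelin with IFN-γ libraries, 2827, 2779 and 2576 CPM in Remodelin libraries, 3262, 2922 and 3026 CPM in IFN-γ libraries, and 2788, 3042 and 3111 CPM in control libraries, a log2 fold change of -0.15 ± 0.10 (edgeR adjusted p = 0.351). Only control 1 among the libraries without Remodelin fell within the range of those with it. Cd68 had 1103, 1548 and 1493 CPM in Remodelin with IFN-γ libraries, 1631, 1775 and 1513 CPM in Remodelin libraries, 1686, 1548 and 1552 CPM in IFN-γ libraries, and 1529, 1801 and 1593 CPM in control libraries. Apart from the low first library with both agents, the 4 groups overlapped (-0.10 ± 0.11, edgeR adjusted p = 0.563). Mcoln1, the calcium channel of the lysosome, had 80.6, 101 and 93.7 CPM in Remodelin with IFN-γ libraries, 110.0, 105 and 95.8 CPM in Remodelin libraries, 113, 104 and 101 CPM in IFN-γ libraries, and 99.6, 115 and 108 CPM in control libraries, a log2 fold change of -0.13 ± 0.10 (edgeR adjusted p = 0.390). Libraries with both agents all lay below those with IFN-γ for this gene, by a narrow gap, while Remodelin and control libraries overlapped.

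Sqstm1, the receptor p62 that links cargo to autophagosomes, had 422, 602 and 542 CPM in Remodelin with IFN-γ libraries, 615, 610.3 and 528 CPM in Remodelin libraries, 594, 537 and 518 CPM in IFN-γ libraries, and 489.6, 669.6 and 534 CPM in control libraries. Its groups overlapped, and the log2 fold change was -0.01 ± 0.12 (edgeR adjusted p = 0.957). Of the remaining membrane proteins, Cd63 had the most negative log2 fold change (-0.37 ± 0.14, edgeR adjusted p = 0.110). Scarb2, the receptor that carries glucocerebrosidase to the lysosome, Npc1, the membrane partner of Npc2 in cholesterol export, and Cln3, lost in Batten disease, had 0.03 ± 0.09, 0.09 ± 0.15 and -0.12 ± 0.10.

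The log2 fold changes of the MiT factors for the average Remodelin effect differed in sign. Differences between the factors were not tested. Tfeb had 52.3, 75.2 and 64.2 CPM in Remodelin with IFN-γ libraries, 78.9, 75.3 and 66.8 CPM in Remodelin libraries, 78.4, 80.5 and 76.4 CPM in IFN-γ libraries, and 83.9, 101 and 84.6 CPM in control libraries. Control libraries were the highest, and Remodelin 1 overlapped the IFN-γ libraries. The log2 fold change was -0.29 ± 0.11 (edgeR adjusted p = 0.105). Tfe3 had 55.5, 84.3 and 83.9 CPM in Remodelin with IFN-γ libraries, 77.8, 89.5 and 78.4 CPM in Remodelin libraries, 98.9, 84.9 and 87.8 CPM in IFN-γ libraries, and 103, 96.3 and 90.5 CPM in control libraries, with -0.26 ± 0.11 (edgeR adjusted p = 0.166). Mitf had 27.3, 23.1 and 24.2 CPM in Remodelin with IFN-γ libraries, 14.7, 24.1 and 26.1 CPM in Remodelin libraries, 19.6, 20.3 and 21.9 CPM in IFN-γ libraries, and 22.9, 15.5 and 15.7 CPM in control libraries. Its lowest library was 1 of the Remodelin group, and its log2 fold change of 0.27 ± 0.15 (edgeR adjusted p = 0.254) was the highest of the 35. No factor of the family passed the test.

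**Figure D3:**
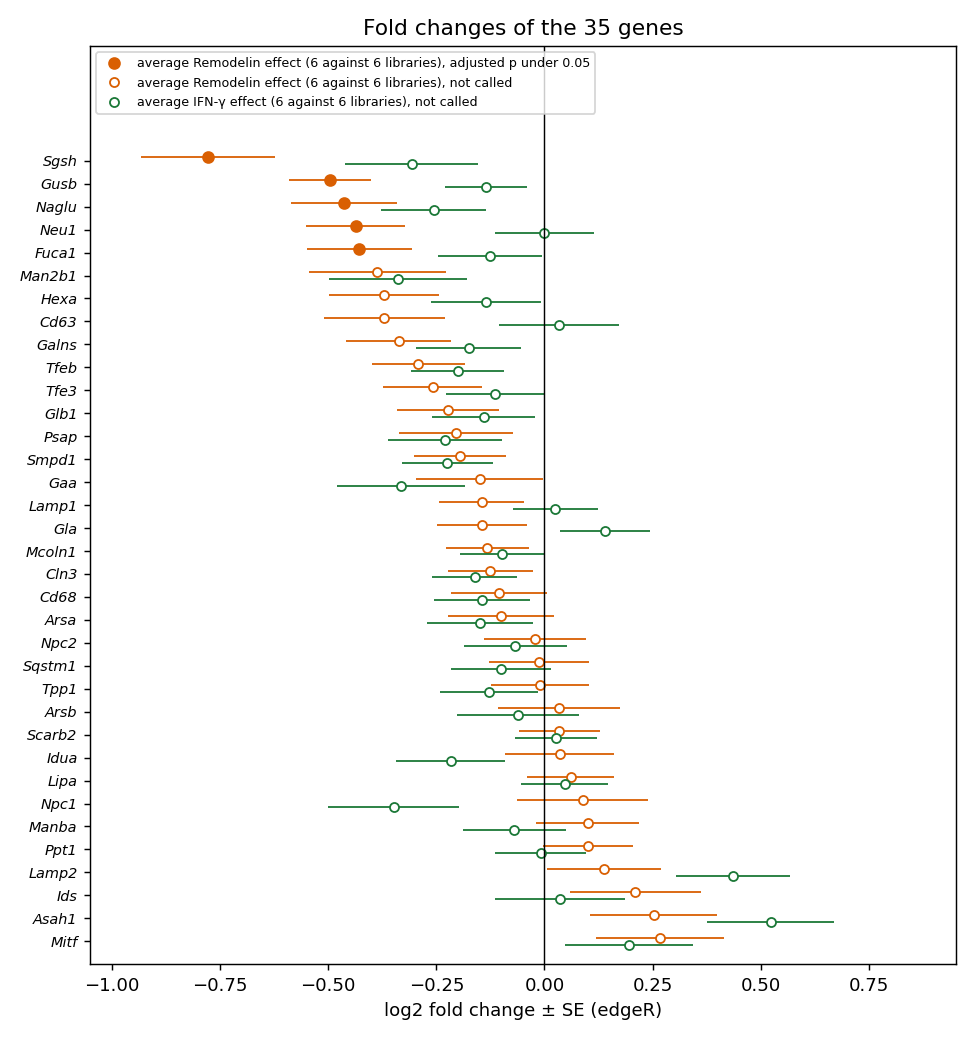
log2 fold change ± SE of the 35 genes for the average Remodelin effect and the average IFN-γ effect, each 6 against 6 libraries, with genes ordered by the Remodelin value and filled points for an adjusted p under 0.05. Filled points appear for Remodelin alone, at Sgsh, Gusb, Naglu, Neu1 and Fuca1, from -0.78 to -0.43.

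Within each level of IFN-γ, the Remodelin comparisons of 3 against 3 libraries gave no call among the 35. For Remodelin against control, 0 of 35 were called in either direction by edgeR, where 0.653% of all genes were called lower and 0.193% higher. At an unadjusted p under 0.05, 4 were lower (Gusb, Naglu, Neu1 and Sgsh), where 7.47% of all genes were, and 0 higher, where 5.2% were. DESeq2 called 1, Gusb, where it called 1.3% of all genes lower. With IFN-γ in both groups, 0 of 35 were called by edgeR, where 0.223% of all genes were called lower and 0.141% higher. Here 8 were lower at an unadjusted p under 0.05 (the same 4 with Cd63, Fuca1, Galns and Hexa), where 9.18% of all genes were, and 0 higher, where 7% were. DESeq2 called Gusb and Sgsh, where it called 1.28% of all genes lower. Gusb had a log2 fold change of -0.45 ± 0.13 with IFN-γ present (edgeR adjusted p = 0.147) and -0.54 ± 0.13 without it (0.0663). Sgsh had -0.87 ± 0.22 with IFN-γ present (edgeR adjusted p = 0.0951) and -0.68 ± 0.22 without it (0.179).

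In the authors' deposited table, 6 of the 35 were lower in Remodelin with IFN-γ against IFN-γ (Cd63, Fuca1, Gusb, Hexa, Neu1 and Sgsh), where 2.19% of its genes were lower, and 0 were higher, where 0.7% were. The authors' deposited table called 0 of the 35 for Remodelin against control, where 0.433% of its genes were lower and 0.195% higher. The authors' deposited table gives Gusb a log2 fold change of -0.42 in the first comparison (adjusted p = 0.0149) and Sgsh one of -0.69 (adjusted p = 0.00901). Whether the Remodelin effect differed with IFN-γ was tested by the interaction, which called 0 of 35 by edgeR and by DESeq2 (0 at an unadjusted p under 0.05, which 1.16% of all genes met above 0 and 1.14% below it), where 0.00742% of all genes were called lower and 0% higher. The smallest interaction p was that of Cd68 (log2 difference -0.21 ± 0.22, unadjusted p = 0.369).

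IFN-γ was compared with its absence in the same way. For the average IFN-γ effect, 0 of 35 were called by edgeR and by DESeq2, where 0.00742% of all genes were called higher and 0% lower. At an unadjusted p under 0.05, Asah1 and Lamp2 were higher, where 8.56% of all genes were, and Gaa, Man2b1, Naglu, Npc1 and Smpd1 were lower, where 4.32% were. Asah1 had 443, 234 and 223 CPM in Remodelin with IFN-γ libraries, 182, 181 and 224 CPM in Remodelin libraries, 237, 234 and 238 CPM in IFN-γ libraries, and 189, 176 and 161 CPM in control libraries. With IFN-γ 5 of 6 libraries were above all 6 without it, and the sixth (223 CPM) was just under Remodelin 3 (224 CPM). The log2 fold change was 0.52 ± 0.15 (edgeR adjusted p = 0.286). Lamp2, the membrane glycoprotein needed for fusion with autophagosomes and for chaperone-mediated autophagy, had 614, 374 and 367 CPM in Remodelin with IFN-γ libraries, 309, 291 and 383 CPM in Remodelin libraries, 392, 406 and 412 CPM in IFN-γ libraries, and 300.1, 340.4 and 271 CPM in control libraries. Remodelin 3 alone, at 383 CPM, reached into the range of the libraries with IFN-γ (0.44 ± 0.13, edgeR adjusted p = 0.309). Npc1 stood at the other end, with 116.7 to 199.6 CPM with both agents, 158 to 258 CPM with Remodelin, 143 to 169.7 CPM with IFN-γ and 172 to 254 CPM in controls (-0.35 ± 0.15, edgeR adjusted p = 0.361).

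For IFN-γ against control, 0 of 35 were called by edgeR and by DESeq2, where 0.0148% of all genes were called higher and 0% lower. Lamp2 had the smallest p (0.41 ± 0.19, unadjusted p = 0.0435, edgeR adjusted p = 0.889) and was the 1 gene of the 35 that was higher at an unadjusted p under 0.05, where 2.97% of all genes were. None of the 35 was lower at that p, where 2.4% of all genes were. For Remodelin with IFN-γ against Remodelin, 0 of 35 were called by edgeR and by DESeq2, where 0% of all genes were called in either direction, and Asah1 and Lamp2 were higher at an unadjusted p under 0.05, where 6% of all genes were higher and 1.74% lower. The authors' deposited table called Asah1 higher for IFN-γ against control (log2 fold change 0.39, adjusted p = 0.0362), where 0.413% of its genes were higher, and none of the 35 lower, where 0.18% were. For Remodelin with IFN-γ against Remodelin the authors' deposited table called 0 of the 35, where 0.00489% of its genes were higher and 0% lower.

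Cells that received both agents were also compared with untreated controls. Of the 35 genes 3 fell (Sgsh, Naglu and Gusb), where 2.05% of all tested genes were called lower, and 1 rose (Asah1), where 2.44% were called higher. Sgsh had a log2 fold change of -1.08 ± 0.22 (edgeR adjusted p = 0.0188), Naglu -0.72 ± 0.17 (0.0338), Gusb -0.63 ± 0.13 (0.0225) and Asah1 0.77 ± 0.21 (0.0457). The libraries of the groups did not overlap for 15 genes that were lower, where 16.1% of all tested genes did so, and for 3 that were higher (Asah1, Lamp2 and Mitf), where 15.4% did. At an unadjusted p under 0.05, 14 of the 35 were lower, where 14.2% of all genes were, and 3 were higher, where 15.6% were. The median of the 35 was -0.25, beside 0.01 for all tested genes. Not called were Man2b1 (-0.72 ± 0.23, edgeR adjusted p = 0.0642), Tfeb (-0.49 ± 0.15, 0.0642), Fuca1 (-0.55 ± 0.17, 0.0632) and Lamp2 (0.57 ± 0.19, 0.0709). DESeq2 called 9, adding Fuca1, Galns, Man2b1, Tfeb and Lamp2, where by DESeq2 7.64% of all genes were called higher and 5.69% lower. The authors' deposited table called 5 lower (Fuca1, Gusb, Man2b1, Naglu and Sgsh), where 1.39% of its genes were lower, and Asah1 higher, where 2.09% were.

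These calls rested on few libraries. Without Remodelin with IFN-γ 1, 0 of the 35 were called, where 0.284% of all genes were. Without control 2 the count was also 0, where 0.117% of all genes were called, and without control 3 it was 1, where 0.591% were. Without Remodelin with IFN-γ 1 the log2 fold change was -0.86 for Sgsh (edgeR adjusted p = 0.0714), -0.51 for Naglu (0.134), -0.57 for Gusb (0.0908) and 0.41 for Asah1 (0.189). Without control 1, 8 were called, where 10.2% of all genes were called in either direction, and without Remodelin with IFN-γ 2 also 8, where 10.5% were. The median of the 35 in this comparison was -0.12 without Remodelin with IFN-γ 1.

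Remodelin with IFN-γ 1 stood apart from the other libraries over the 35 genes. The mean deviation of their log2 CPM from the mean of the 12 libraries was -0.30 in it, against -0.02 and -0.07 in the other libraries with both agents, -0.06, 0.05 and -0.04 with Remodelin, 0.07, 0.01 and 0.06 with IFN-γ, and 0.10, 0.14 and 0.06 in controls. The 35 genes took 2.85% of all counts in that library and 3.38 to 4.28% in the other 11. Without it the median log2 fold change of the 35 for the average Remodelin effect was -0.04, with 20 of 35 below 0, beside a median of 0.04 for all tested genes. The falls of Gusb and Sgsh were called without it.

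**Figure D4:**
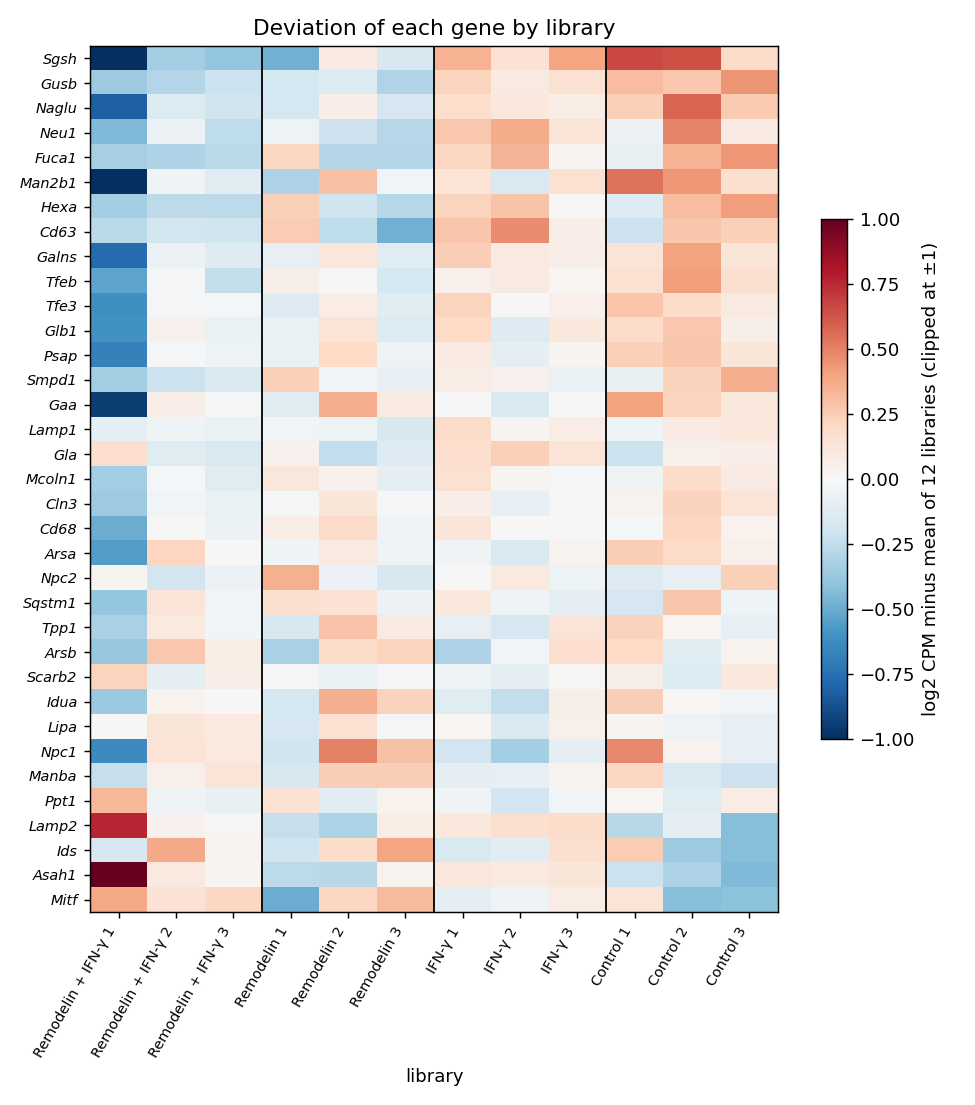
Deviation of each gene in each library, as log2 CPM minus the mean of the 12 libraries (colour scale clipped at 1 in both directions), with genes ordered by the average Remodelin effect. Remodelin with IFN-γ 1 shows low values for most genes, with a mean of -0.30, and Asah1, Lamp2 and Mitf high in it.

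The same library also differed in its relation to base composition. The Spearman correlation of a gene's deviation in it with the GC content of the gene's longest transcript was -0.69 over all genes, against -0.12 and -0.26 in the other libraries with both agents, 0.26, 0.10 and -0.37 with Remodelin, 0.22, 0.03 and -0.17 with IFN-γ, and 0.12, 0.53 and 0.55 in controls. Across the 35 genes, which share these libraries, fold change and GC content had a Spearman correlation of -0.75 for the average Remodelin effect (-0.50 over 13339 genes), -0.67 for the average IFN-γ effect (-0.58) and -0.80 for both agents against control (-0.66). Genes low in GC content, such as Lamp2 (38.7%), Mitf (43.4%) and Asah1 (43.5%), were at the top of these comparisons, and Tfeb had the highest GC content of the 35 (63.2%). Tested genes within 1 percentage point of the GC content of Sgsh had a median log2 fold change of -0.19 for the average Remodelin effect, and Sgsh differed from that median by -0.59. For Gusb the median of such genes was -0.07, for Naglu -0.21, for Neu1 -0.11, for Fuca1 -0.11 and for Tfeb -0.18, whereas it was 0.23 for both Asah1 and Mitf.

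With the GC trend of each library removed, 2 of the 35 were called for the average Remodelin effect, where 3.51% of all genes were called lower and 2.24% higher. They were Gusb at -0.42 (edgeR adjusted p = 0.00604) and Sgsh at -0.61 (0.0149). Naglu stood at -0.25 (0.0805), Neu1 at -0.33 (0.0515) and Fuca1 at -0.31 (0.109). The median of the 35 was then -0.08, beside 0.02 for all tested genes. For both agents against control 1 was called, where 0.645% of all genes were lower and 0.525% higher: Gusb at -0.50 (edgeR adjusted p = 0.0435), with Sgsh at -0.79 (0.0537) and Asah1 at 0.34 (0.232).

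**Figure D5:**
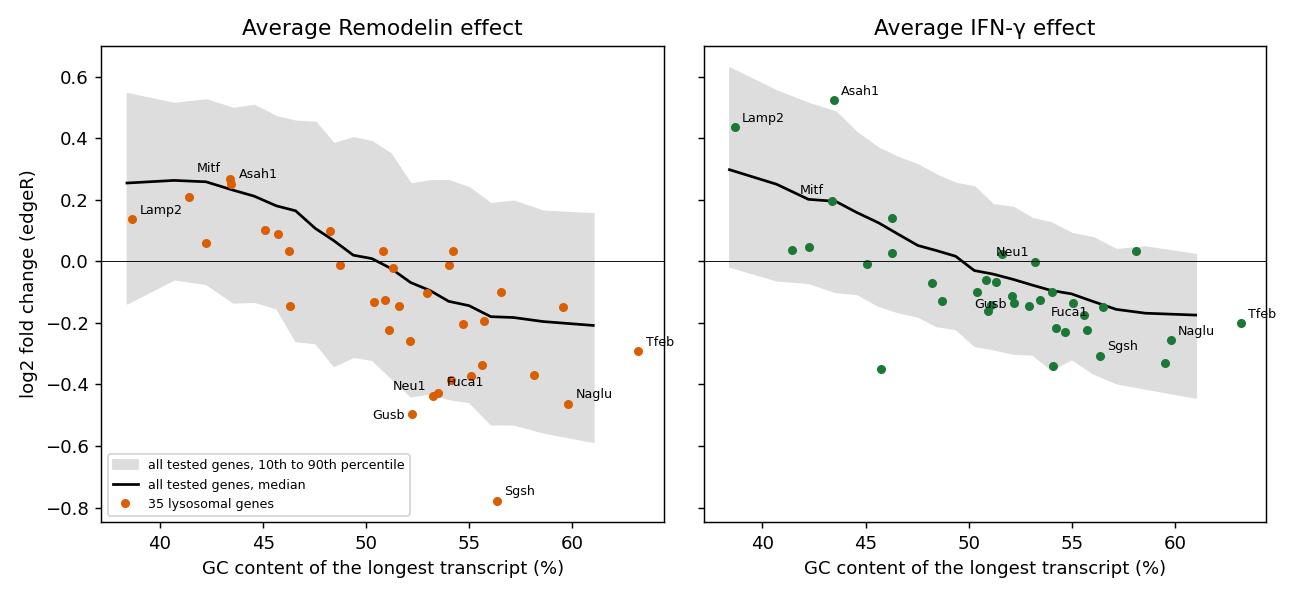
log2 fold change against GC content of the longest transcript (percent) for the 35 genes (points), with the median (line) and the 10th to 90th percentile (band) of all tested genes in bins of GC content, for the average Remodelin effect on the left and the average IFN-γ effect on the right. The all-gene median falls with GC content in both panels, and Sgsh (-0.78), Gusb (-0.50) and, by a small margin, Neu1 (-0.44) lie below the band for Remodelin.

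Fold changes were set beside the letters CACGTG in the promoter window, as a description without a test. The 9 genes with it had a median log2 fold change of -0.15 for the average Remodelin effect and the 23 without it -0.02. For the palindrome TCACGTGA the medians were -0.13 in the 3 genes with it and -0.15 in the 29 without it. For the full CLEAR element, Cln3 had -0.12 and the 31 genes without it a median of -0.14. GC content, with which fold change also varied, was not matched in these splits. Sgsh and Naglu, with the element, and Gusb, Neu1 and Fuca1, without it, were called, while Lamp1, with 4 copies, had -0.15 ± 0.10 and Cln3, with the longest form, had -0.12 ± 0.10.

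Other lysosomal genes were counted for the average Remodelin effect from lists chosen by function. By edgeR 9 of the 111 tested fell (8.11%), where 4.8% of all tested genes were called lower. The 111 genes were not matched to all genes by GC content or level. Their calls are those of the main fit. Whether these calls held with a library left out or the GC trend removed is not given here. Of 17 subunits of the proton pump (V-ATPase) that acidifies the lysosome, 1 fell, Atp6v0d1 (-0.37 ± 0.11, edgeR adjusted p = 0.0458). Of 16 genes of the Ragulator, Rag GTPase and folliculin complexes, which signal amino acid supply from the lysosome to mTORC1 and TFEB, 0 were called by edgeR and by DESeq2 (3 at an unadjusted p under 0.05), and Lamtor1, a Ragulator subunit, had the smallest p (-0.38 ± 0.13, edgeR adjusted p = 0.0737). Of 10 genes of mannose 6-phosphate sorting, the route by which enzymes reach the lysosome, 2 fell, the adaptor Gga2 (-0.51 ± 0.11, edgeR adjusted p = 0.0135) and Nagpa, the enzyme that uncovers the sorting tag (-0.37 ± 0.11, 0.0449). Of 18 autophagy genes 1 fell, Map1lc3b, the autophagosome protein LC3B (-0.34 ± 0.10, edgeR adjusted p = 0.0395). Of 20 further lysosomal enzymes 3 fell, Acp5, the tartrate-resistant phosphatase (-0.58 ± 0.12, edgeR adjusted p = 0.00764), Hyal2, a hyaluronidase (-0.43 ± 0.12, 0.0379), and Pla2g15, the lysosomal phospholipase (-0.42 ± 0.11, 0.0318). Of 19 further membrane proteins tested 1 fell, Spns1, a lysophospholipid exporter (-0.44 ± 0.11, edgeR adjusted p = 0.0306), and of 11 cathepsins and legumain 1 fell, Ctsa, which protects Neu1 in a complex (-0.40 ± 0.11, 0.0381).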

How the data were processed

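The authors' deposited table gives raw counts per gene for 12 libraries and, per the file headers, FPKM values and the authors' own log2 fold changes and p-values. The deposited FPKM were used for levels between genes, and the authors' log2 fold changes and p-values were copied and not recomputed. The submitters' processing notes name CASAVA 1.8, HISAT2 2.0.5 and featureCounts 1.5.0-p3, with no role or order. No source used here gives the genome build, the annotation or the strand setting.

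The test was edgeR's quasi-likelihood test (edgeR 4.0.16, R 4.3.3, TMM, default count filter by group) on the deposited counts, with all 12 libraries in 1 fit and p-values adjusted by Benjamini-Hochberg over 13474 genes (called under 0.05). CPM are TMM-scaled. Fold changes are given ± SE. This SE was derived as the absolute log2 fold change divided by the square root of the test's F statistic. A count of 3 corresponds to 0.152 to 0.192 CPM, which covers counting error only. The common biological coefficient of variation was 18.6%. Within groups no library was a duplicate of another (chi-square per degree of freedom 7.75 to 84.3). Control 1 had 36.2 and 45.1 against controls 2 and 3, which had 24.8 between them. Remodelin 1 had 56.4 and 62.2 against Remodelin 2 and 3, which had 15.1 between them. The highest values, 76.1 and 84.3, were those of Remodelin with IFN-γ 1, beside 29.7 between Remodelin with IFN-γ 2 and 3. Pairs of libraries from different groups were not checked for duplicates.

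The genes, the pathway lists and the comparisons were chosen with earlier results of these data known. Named with all libraries are genes called in any comparison or with the smallest p in one, the MiT factors, Lamp1, Lamp2, Cd68, Mcoln1, Sqstm1 and the 3 genes highest in FPKM. Alternatives were DESeq2 1.42.0 and its size factors, no count filter, 50 reads in 3 libraries, a replicate block, the 2 compared groups alone, libraries left out, and removal of trends with GC content, or with GC content and length (the last chosen after seeing the data), from the longest GENCODE M21 transcript (98.998% of tested genes). Promoter windows came from RefSeq.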

Additional observations from a re-analysis of the deposited data

How the results depend on the processing

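Counts of the 35 genes called by edgeR moved with the processing as follows. For the average Remodelin effect the count was 5, it was 2 with the GC trend removed (5.75% of all genes called in either direction), 11 (9 lower, 2 higher) without both control 1 and Remodelin 1, known from earlier results to stand apart (26.8% of all genes), and 2 to 7 with 1 library left out. Fuca1 was also lost with DESeq2 size factors in edgeR, and Naglu with GC and length trends removed. For Remodelin with IFN-γ against control it was 4, and it was 7 with no count filter (6.42% of all genes), 9 with DESeq2 (13.3%), 1 with the GC trend removed (1.17%), 2 with GC and length trends removed (4.1%), 0 in the 2 compared groups alone (0.658%), 12 without both libraries named above (21.6%), and 0 to 8 with 1 library left out. For Remodelin against control it was 0, and it was 1 (Gusb) with DESeq2 (2% of all genes), with the GC trend removed (1.41%) and with GC and length trends removed (3.09%), and 7 without both libraries (13.6%). With IFN-γ in both groups, Remodelin gave 0, with 1 (Sgsh) under no count filter (1.11% of all genes), 2 with DESeq2 (1.28% lower) and 2 with GC and length trends removed (2.77%). For the average IFN-γ effect it was 0, with 1 (Asah1) under no count filter (1.33%). Leaving out 1 library gave 0 for these last 3 comparisons, and the remaining 3 comparisons gave 0 under every alternative run. The cause of these changes was not tested, except that the 2 compared groups alone and a library left out leave fewer samples. No named fold change turned its direction where it was called. Sgsh, at 93 to 384 reads, was the gene with the fewest counts.

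Deviations of same-numbered libraries of different groups correlated at -0.55 to 0.26 (18 pairs, median -0.05). Libraries with other numbers correlated at -0.32 to 0.41 (36 pairs, median 0.01). These correlations gave no sign that replicate numbers pair the libraries. With 3 libraries per group they cannot show that pairing was absent. With a replicate block the count was 4 for the average Remodelin effect, without Fuca1 (4.29% of all genes), and 2 (Naglu and Sgsh, 1.19%) for Remodelin with IFN-γ against control.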

Other observations

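Among the further lysosomal genes, 4 of those that fell for the average Remodelin effect were also lower in Remodelin with IFN-γ libraries than in controls, a comparison that shares libraries with it (4 of 111 tested, 3.6%, where 2.05% of all tested genes were called lower). These were Spns1 (log2 fold change -0.64 ± 0.16, edgeR adjusted p = 0.0384), Acp5 (-0.62 ± 0.16, 0.0425), Gga2 (-0.60 ± 0.16, 0.0425) and Nagpa (-0.56 ± 0.15, 0.0467). Here too the calls are those of the main fit, without results for left-out libraries or the GC trend removed.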
